A study of Mus musculus with 8 samples.

Results

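The data described here are the 4 lists of METTL3 sites among the 8 peak lists of the series. All 4 come from mouse embryonic stem cells, strain C57BL/6, grown in serum medium with LIF, CHIR99021 (a GSK3 inhibitor) and PD0325901 (a MEK inhibitor). A rabbit antibody against METTL3 was used for CUT&RUN, in which the antibody tethers micrococcal nuclease to chromatin and the DNA cut loose is sequenced. There were 2 libraries from cells labelled Mettl14 control and 2 from cells labelled Mettl14 CKO, and the comparison asks where METTL3 sites lie when the gene of its partner is intact or targeted. The labels do not say how the CKO was made, which promoter or Cre was used, or whether a line is 1 clone. Whether replicate libraries stem from different cultures is not stated either, so p-values measure only the spread between these libraries, which may be technical. No METTL3-antibody library from Mettl3-targeted cells and no library of a nonspecific antibody was analysed here. The other 4 lists, made with an antibody against METTL14 in Mettl3 control and Mettl3 CKO cells, served only for comparison.

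METTL3 is the catalytic subunit of the nuclear complex that places N6-methyladenosine (m6A) on RNA, and METTL14 is the subunit that holds the RNA and stabilises METTL3. The complex works largely while RNA is being transcribed, so METTL3 can be recovered with chromatin. In embryonic stem cells m6A is known for its part in the exit from pluripotency and in the silencing of endogenous retroviruses.

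The lists held 353 and 341 peaks in the control libraries and 242 and 344 in the CKO libraries. Every peak of a list had the same width, 285 and 277 bp in control and 267 and 245 bp in CKO, and a score of 1, so a list tells where METTL3 was called and not how strongly. The control mean was 347 ± 8.49 peaks (SD, n = 2). The CKO mean was 293 ± 72.1 peaks (SD, n = 2), and CKO replicate 1 alone stood low. The log2 difference of -0.27 was within the spread of the CKO libraries (two-sided exact permutation p = 0.667). With 2 libraries against 2 the smallest p that this test allows is 0.333, so none of the 9 library measures tested here could reach significance, and each adjusted p was 0.75 or 1.

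Peaks that shared at least 1 bp were merged into 871 regions. Most were private to a library: 687 regions (78.9%) were called in 1 library, 50 in 2, 43 in 3 and 91 (10.4%) in all 4. By library, 205 and 195 regions were private to the control libraries and 96 and 191 to the CKO libraries. Both control libraries called 122 regions (14% of all regions), and both CKO libraries also called 122 (14%). Of the 122 control regions 91 (74.6%, 95% Wilson interval 66.2% to 81.5%, counting error only) were called in both CKO libraries and 115 (94.3%, 88.6% to 97.2%) in at least 1. In the other direction 110 of the 122 CKO regions (90.2%, 83.6% to 94.3%) were touched by a control library. A region that a control library called without its replicate was seldom found in CKO cells: 26 of 231 (11.3%) for control replicate 1 and 24 of 219 for control replicate 2. In CKO the corresponding counts were 24 of 120 and 31 of 222.

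**Figure D1:**
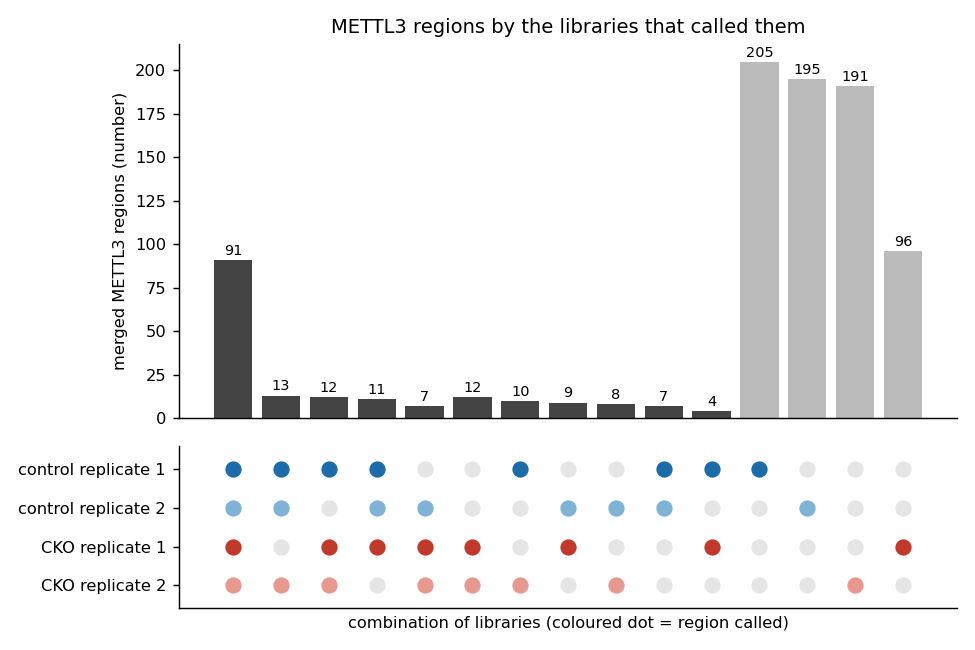
Number of merged METTL3 regions (y axis) for each combination of libraries (coloured dots), with regions of more than 1 library in dark grey and of a single library in light grey. The 91 regions of all 4 libraries and the 4 bars of single libraries (96 to 205) hold most regions, and each other combination holds 4 to 13.

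Libraries of the same group shared about as many regions as libraries of different groups, 122 and 122 against 118 to 126. The control libraries had 122 regions in common, 34.6% and 35.8% of their lists. A control and a CKO library had 118 to 126 in common, which was 33.4% to 35.7% of the control list. The CKO libraries had 122 in common, 50.4% of the shorter and 35.5% of the longer list. Where peaks of 2 libraries overlapped, their centres lay a median of 6 to 14.5 bp apart in the 6 pairs of libraries, so shared sites were placed to within a small part of a peak's width.

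The regions of all 4 libraries and the regions of a single library differed in what they overlapped, and the grouping by number of libraries was made after the values were seen. Of the 91 regions of all 4 libraries 61 (67.0%) lay in no annotated gene, 9 in a noncoding gene only and 21 (23.1%) in a protein-coding gene body. Of the 687 single-library regions 314 (45.7%) lay in no annotated gene and 310 (45.1%, 41.4% to 48.9%) in a protein-coding gene body. Contigs carry no genes in the annotation used. On chromosomes 1 to 19, X and Y alone, gene bodies held 28% of the 75 regions of all 4 libraries and 47.0% of the 655 single-library regions, and 60% and 43.5% lay in no annotated gene. Protein-coding gene bodies cover 37.9% of the annotated length of these chromosomes, and 54.2% of it lies in no annotated gene. Of the 75 regions 15 were neighbours in the place chr9:3000313-3038177, all in no annotated gene. That place alone gave 15 of the 45 such regions in no annotated gene, and the 21 in gene bodies all lay outside it. The shares of the 75 regions thus lean on it, and a shortage of gene-body sites beside the annotated length was not tested without it. METTL14 lists also held 89 of the 91 regions (97.8%), 79 of them in all 4 METTL14 libraries, but only 82 of the 687 single-library regions (11.9%). The exceptions among the 91 were chrX:169994352-169994817 and chr4:3083211-3083789, which no METTL14 library called. These shares describe the lists and carry no test, because the regions of a library are not replicates. The contrast was smaller early in the lists: over the first 50% of each list, gene bodies held 31.7% of the 142 single-library regions and 25% of the 84 regions of all 4 libraries. Of the 122 replicated control regions 115 (94.3%) were also in a METTL14 list.

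**Figure D2:**
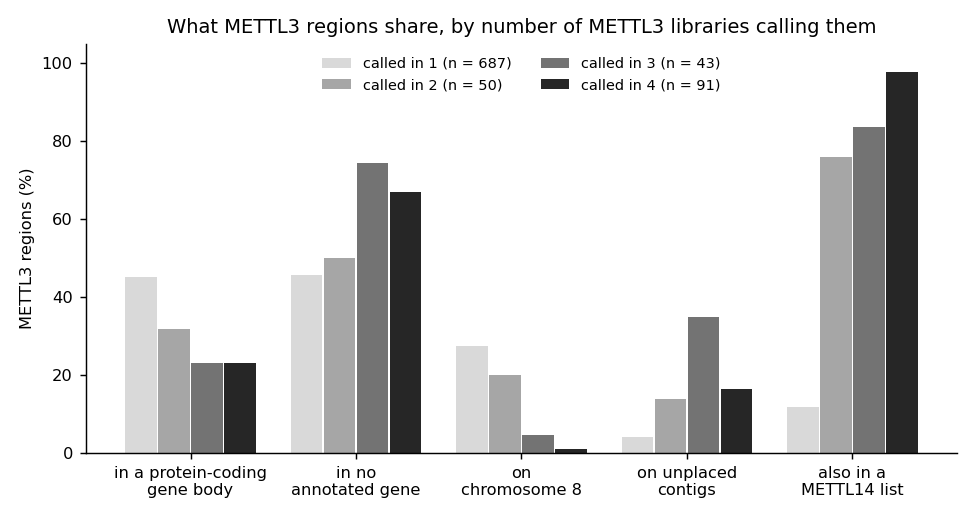
Share of METTL3 regions (y axis, percent) with each feature on the x axis, in bars by the number of METTL3 libraries calling the region (687, 50, 43 and 91 regions). Gene-body and chromosome 8 shares are highest for single-library regions, and 97.8% of the regions of all 4 libraries are also in a METTL14 list.

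The order of the deposited lists ran with this division, although what the order stands for is not given in the sources used here. For this, every list was split into 10 equal parts. In part 1 of each list 77.1% to 88.9% of the peaks were called in all 4 libraries, and in parts 8 to 10 none was, in any library. CKO replicate 1, the shortest list, still had 12 such peaks of 24 in part 5, where the other libraries had 5.71% to 11.8%. Peaks on chromosome 8 were absent from parts 1 and 2 of every list and made up 25% to 45.7% of part 8.

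**Figure D3:**
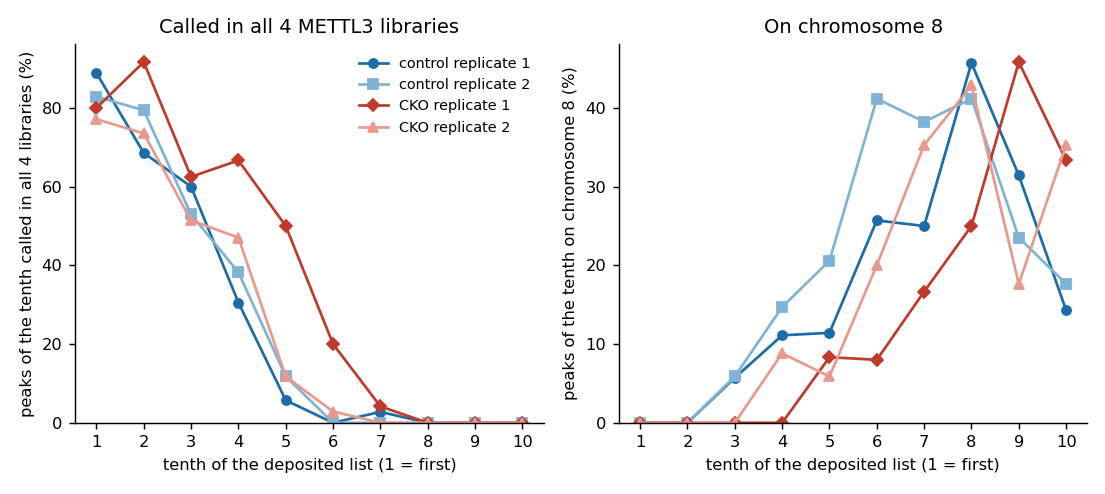
Each deposited METTL3 list split into 10 equal parts (x axis, 1 = first), with the share of peaks called in all 4 libraries (left, percent) and on chromosome 8 (right, percent), a line per library. The left lines fall from 77.1% to 88.9% in part 1 to 0 in parts 8 to 10, while chromosome 8 peaks are absent from parts 1 and 2.

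The first 5 regions of all 4 libraries stood at the same positions, 1 to 5, in every list, with no difference between control and CKO. They were chr2:98666962-98667246, chr9:35305305-35305589 in the long noncoding RNA gene Gm33838, chr6:103649082-103649366 in Chl1, a neural cell adhesion gene, position 15478 to 15763 of the mitochondrial genome, and chr14:19415734-19416018. The next 5 kept their order within a few positions. The region chr12:3109842-3110137 was at position 7 and 7 in control and 6 and 6 in CKO. The region chr15:75086643-75087038 was at 6 and 6 in control and 7 and 7 in CKO. The region chr9:3000313-3000616 was at position 8 in all 4 lists, chrX:143482919-143483204 at 9 or 10, and chr17:39843559-39843929 at 9 and 11 in control and 11 and 13 in CKO. Of these 10 regions, 2 lay in an annotated gene.

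In gene bodies METTL3 was called mostly in different genes from library to library. Of 21900 protein-coding genes 297 (1.36%) held a METTL3 region in any library, and 242 of the 297 did so in a single library. The libraries marked 117 and 106 genes in control and 74 and 115 in CKO. Genes with a region called in both libraries of a group numbered 27 in control (0.123%) and 29 in CKO (0.132%), and 21 genes were in both sets. Marked genes were long: their median length was 79756 bp, against 17146 bp for all protein-coding genes. A gene counted as marked when any region fell in its body, so the count itself favours long genes. The RefSeq table used here gives no exons, so exonic and intronic sites were not told apart.

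A region called in all 4 libraries lay in 20 protein-coding genes (0.0913%), and each of the 4 lists held at least 1 peak in each of them. The genes are grouped by function below for reading only, and no share of a function was tested. Without a library of a nonspecific antibody, METTL3 sites were not told apart from background signal. Several of the 20 genes act in nuclear regulation. The site in Jarid2, a cofactor of Polycomb repressive complex PRC2, was at chr13:44869467-44869789, 138196 bp from the nearest RefSeq start of the gene, and stood at positions 54 and 59 in control and 75 and 70 in CKO. The site in Cdk8, the kinase of the Mediator complex, was at chr5:146261001-146261309 and stood at 36 and 37 in control and 41 and 44 in CKO. Gtf2ird1, a transcription factor related to TFII-I, held chr5:134378863-134379154. In these 3 genes each control and CKO library gave 1 peak.

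Others act at the centrosome or in neurons. Cdk5rap2, a centrosome protein that anchors microtubules, held chr4:70378072-70378356. Sfi1, a centrosome protein that binds centrin, held 8 regions, with 4 and 3 peaks in control and 4 and 5 in CKO. Gphn, the scaffold of inhibitory synapses, held chr12:78350876-78351169, 124221 bp from its nearest start. Kctd16, an auxiliary subunit of GABA-B receptors, held chr18:40308083-40308370, and Cntnap5b, of the contactin-associated family, chr1:100180108-100180397. Camk1d, a calcium-dependent kinase, held chr2:5379165-5379458. Chl1 was named above.

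In the other 10 genes of the 20 the best site stood between 5.62% and 34.3% of the way down the lists, on average over the libraries. Lars2, the mitochondrial leucyl-tRNA synthetase, held chr9:123461881-123462170 at positions 28 and 35 in control and 32 and 33 in CKO. Aida, a regulator of axin and JNK signalling, held chr1:183299131-183299415, 2071 bp from its nearest start and 1838 bp from that of its neighbour Brox. Cmss1 and Filip1l overlap and shared the site chr16:57391386-57391670. Fbxw4, of the F-box family, held 2 regions and Pcnx2 also 2, while E030030I06Rik, the claudin family gene Cldn34d and the zinc finger gene Zc3h7a held 1 each. Tmem267 held 6, with 5 and 2 peaks in control and 3 and 4 in CKO. Each of the 20 gene sites was also called with the METTL14 antibody, in all 4 METTL14 libraries except at Pcnx2 (2) and Cntnap5b (3).

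Next in the lists came genes whose best region was called in 2 or 3 libraries. The mitochondrial genes ND2 and ND1, subunits of respiratory complex I, led them. ND1 had a peak in control replicate 1 and both CKO libraries, and ND2 in control replicate 2 and CKO replicate 2. The zinc finger gene Zfp978 held 10 regions, with 1 and 3 peaks in control and 3 and 4 in CKO, and its best region was called in both CKO libraries only. The gene 4930467E23Rik had a peak in control replicate 2 and CKO replicate 2, and Mdga2, a synaptic adhesion gene, in control replicate 1 and CKO replicate 2. A530032D15Rik had 2 and 0 peaks in control and 1 and 2 in CKO, and Gm7592 had 0 and 1 in control and 1 and 2 in CKO. The neighbours C130026I21Rik and Gm38510 shared their best site, called in control replicate 2 and CKO replicate 1. In 4931408C20Rik both control libraries and no CKO library called chr1:26686798-26687249. In these genes the libraries of the 2 groups differed by a few peaks at most, and 4931408C20Rik alone had peaks in 1 group only.

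By group, 6 genes (0.0274%) had a replicated region in control only and 8 (0.0365%) in CKO only. Having no second called library on the other side does not show that METTL3 was absent there. For example, Muc3, a mucin gene, was counted as control only and had a peak in CKO replicate 2. Slc30a4, a zinc transporter, was counted as CKO only and had a peak in control replicate 2. Both genes were chosen after their values were seen.

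Among noncoding genes, 94 of 28080 held a METTL3 region, 67 of them in a single library. The 11 with a region of all 4 libraries were 7 long noncoding RNA genes, 3 pseudogenes and a microRNA gene. Rn18s-rs5, a pseudogene of 18S ribosomal RNA, held chr17:39846381-39846744 at positions 11 and 13 in control and 15 and 14 in CKO. Gm10222 held chr1:24612607-24612902, and Gm36876 chr11:109011656-109012063. Of those called in 2 or 3 libraries the best placed were AY036118, beside Rn18s-rs5, the mitochondrial 12S ribosomal RNA gene mt-Rnr1, the mitochondrial tRNA genes TrnI and TrnF, and Gm33272 on chromosome Y. The microRNA gene was Mir6236 (chr9:110281287-110281409), inside the long noncoding RNA gene Gm39429. The region chr9:110281163-110281460 covers it whole and was at positions 102 and 116 in control and 97 and 119 in CKO. Its mature sequence, shown because it is the only mature microRNA of the sequence table under a METTL3 region, is given from RefSeq (GRCm38.p6, chr9:110281353-110281371, plus strand), 5′ to 3′, with the seed (bases 2 to 8) in capitals.
mmu-miR-6236: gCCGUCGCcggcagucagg

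No METTL3 region of more than 1 library touched an annotated promoter window. RefSeq promoter windows reach from 250 bases before to 50 after a start, and 32851 windows of 27025 genes were searched. Single-library regions touched 14 windows of 13 genes, 9 of them protein-coding: Mroh2a, Gpr19, Fbxo31, Rnf44, Klhl36, Midn, Psmc6, Atp11b and Hmgxb4. The 9 protein-coding windows had a median of 24 CG dinucleotides, against 13 over all 21263 protein-coding windows, and 7 of the 9 (77.8%) held the GC box GGGCGG on either strand, against 46.2% of those windows and 35.7% of windows of any gene. A match is a description of the letters only. Windows of protein-coding genes with at least 200 bases under a METTL3 peak are shown, a choice made after the values were seen, to let the promoters with and without METTL14 calls be compared. They are from RefSeq (GRCm38.p6), 5′ to 3′ on the gene's strand, with the bases under the METTL3 peak in capitals.
Psmc6 (chr14:45329574-45329873, plus strand): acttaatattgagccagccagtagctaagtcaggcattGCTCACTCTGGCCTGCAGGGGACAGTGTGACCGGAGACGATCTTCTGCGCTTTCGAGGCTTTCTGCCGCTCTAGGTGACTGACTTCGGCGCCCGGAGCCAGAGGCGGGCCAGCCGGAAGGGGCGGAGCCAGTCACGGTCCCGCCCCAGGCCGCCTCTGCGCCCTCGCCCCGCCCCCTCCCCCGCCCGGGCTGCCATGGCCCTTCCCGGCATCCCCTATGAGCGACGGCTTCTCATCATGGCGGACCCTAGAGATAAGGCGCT
Rnf44 (chr13:54687759-54688058, minus strand): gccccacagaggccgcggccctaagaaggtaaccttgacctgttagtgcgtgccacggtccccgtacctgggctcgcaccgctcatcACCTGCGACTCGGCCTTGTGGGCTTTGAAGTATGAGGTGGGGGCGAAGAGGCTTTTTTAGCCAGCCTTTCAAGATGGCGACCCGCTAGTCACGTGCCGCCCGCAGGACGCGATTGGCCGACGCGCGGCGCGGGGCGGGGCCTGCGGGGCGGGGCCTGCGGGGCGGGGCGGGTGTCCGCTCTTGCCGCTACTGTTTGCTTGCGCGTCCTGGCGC
Fbxo31 (chr8:121578757-121579056, minus strand): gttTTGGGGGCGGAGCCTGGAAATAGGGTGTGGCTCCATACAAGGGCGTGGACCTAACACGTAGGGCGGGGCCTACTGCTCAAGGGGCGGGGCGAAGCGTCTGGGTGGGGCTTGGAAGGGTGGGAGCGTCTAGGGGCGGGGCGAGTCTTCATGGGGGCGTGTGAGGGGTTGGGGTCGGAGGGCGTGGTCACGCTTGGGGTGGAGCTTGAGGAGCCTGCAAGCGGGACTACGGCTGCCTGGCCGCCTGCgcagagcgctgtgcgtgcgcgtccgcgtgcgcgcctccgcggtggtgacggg
Mroh2a (chr1:88226770-88227069, plus strand): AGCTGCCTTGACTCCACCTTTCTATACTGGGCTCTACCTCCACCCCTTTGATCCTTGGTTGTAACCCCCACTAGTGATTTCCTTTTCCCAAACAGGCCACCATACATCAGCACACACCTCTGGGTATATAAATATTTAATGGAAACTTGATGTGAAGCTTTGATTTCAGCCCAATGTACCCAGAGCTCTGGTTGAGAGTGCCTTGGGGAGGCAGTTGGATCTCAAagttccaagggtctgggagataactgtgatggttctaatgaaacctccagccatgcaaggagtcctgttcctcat

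Psmc6, an ATPase of the proteasome cap, was called in control replicate 1 and by 3 METTL14 libraries, and its window held 24 CG dinucleotides and 4 GC boxes. Rnf44, a RING finger gene, was called in control replicate 1 and by all 4 METTL14 libraries (34 CG, 4 GC boxes). Fbxo31, an F-box gene on chromosome 8, was called in CKO replicate 2 and by all 4 METTL14 libraries (29 CG, 4 GC boxes). Mroh2a was called in CKO replicate 2 and by no METTL14 library, and its window held 0 CG dinucleotides and 0 GC boxes. Midn and Hmgxb4, with fewer bases under a peak and not shown, were also called by no METTL14 library. The Midn window held 28 CG dinucleotides and 4 GC boxes, and that of Hmgxb4 held 1 and 0. Windows without METTL14 calls were therefore not all poor in CG. Each of these promoters had a METTL3 peak in 1 of 4 libraries, so none of them gives a difference between control and CKO.

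Within 2 kb of a protein-coding start, or of either gene boundary for the 4408 genes with no start in the table, there were 6.80% and 5.57% of the peaks in control and 4.13% and 6.98% in CKO. The ranges overlap, and the difference of -0.63 percentage points did not exceed the spread (two-sided exact permutation p = 1). It turned to 0.79 without CKO replicate 1 and to 0.41 with all lists shortened to 242 peaks. Only 3 of the 91 regions of all 4 libraries lay that near, at Brox, at Elobl and beside the mitochondrial genes CYTB, ND5 and ND6. Near 4931408C20Rik the region of both control libraries lay 211 bp from the start.

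The share of peaks in each class of site was close in the libraries of both groups. Protein-coding gene bodies took 36.5% and 34.6% of peaks in control and 35.1% and 36.0% in CKO, a difference of 0.01 percentage points (two-sided exact permutation p = 1). With lists of equal length the difference was 5.79 points, from 28.7% to 34.5% (two-sided exact permutation p = 0.333), so it depends on list length. Sites in no annotated gene took 54.1% and 56.6% in control and 55.0% and 54.4% in CKO (two-sided exact permutation p = 1), with -5.37 points at equal length. Noncoding genes alone took 9.35% and 8.80% in control and 9.92% and 9.59% in CKO. These last ranges do not overlap, yet the difference of 0.68 points is at the smallest p the test allows (two-sided exact permutation p = 0.333) and turned to -0.41 at equal length.

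Replicated intergenic sites of METTL3 often lay far from protein-coding genes, and many of them were neighbours in a single place. Of the regions of both control libraries in no annotated gene, 58 were on chromosomes 1 to 19, X and Y, at a median of 111080 bp from the nearest protein-coding gene, and 31 of them were over 100 kb away. In CKO the corresponding 56 regions had a median of 116972 bp, and 32 were over 100 kb away. The place chr9:3000313-3038177, over 100 kb from any protein-coding gene, alone held 15 of these control and 16 of these CKO regions. It thus weighs on both medians and on both counts over 100 kb, and neither was taken without it. For the 285 single-library regions the median was 48183 bp, and 102 of them were over 100 kb away. How far replicated and single-library sites differ outside that place was not tested. The farthest replicated site in no annotated gene, chr2:98666962-98667246, was 1035289 bp from the nearest protein-coding gene and headed all 4 lists.

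The low-coordinate ends of chromosomes, where mouse centromeres lie, held many regions of all 4 libraries. The first 4 Mb of a chromosome held 25 of the 75 such regions on chromosomes 1 to 19, X and Y (33.3%), spread over 9 chromosomes, 15 of them on chromosome 9. Of the 655 single-library regions 22 (3.36%) lay there. At the high-coordinate ends, over the last 4 Mb, the shares were 13.3% and 5.65%.

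Of chromosomes 1 to 19, X and Y, chromosome 8 had the most METTL3 peaks for its length, and nearly all of its regions were single-library regions. It makes up 4.75% of the annotated length and took 17.0% and 20.2% of the peaks in control and 13.6% and 16.6% in CKO. Over the first 50% of each list the mean share was 6.92% in control and 2.28% in CKO, so early in the lists the CKO share was below that of the length. The METTL14 lists, from Mettl3 control and Mettl3 CKO cells, had 4.52% to 4.96% there. Both control libraries lay above both CKO libraries, a difference of -3.51 percentage points (two-sided exact permutation p = 0.333). Without control replicate 2 the difference was -1.89 points and without CKO replicate 1 it was -2.05. At equal list length it was -2.48 points and the groups overlapped (two-sided exact permutation p = 0.667). Of the 202 regions of chromosome 8, 189 (93.6%) were called in a single library and 1 in all 4, at chr8:125778963-125779252 in Pcnx2. Among single-library regions 27.5% were on chromosome 8, and among regions of all 4 libraries 1.10%. Over the first 50% of each list these shares were 10.6% and 1.19%. All 13 stretches of 10 Mb held METTL3 regions, 7 to 24 each. A METTL3 region marked 87 of the 1043 protein-coding genes of the chromosome (8.34%), against 1.01% of the genes elsewhere. Gene bodies took 52.9% of its single-library regions, and 42.2% of those elsewhere, while METTL14 lists held 2.65% of the former and 15.5% of the latter.

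**Figure D4:**
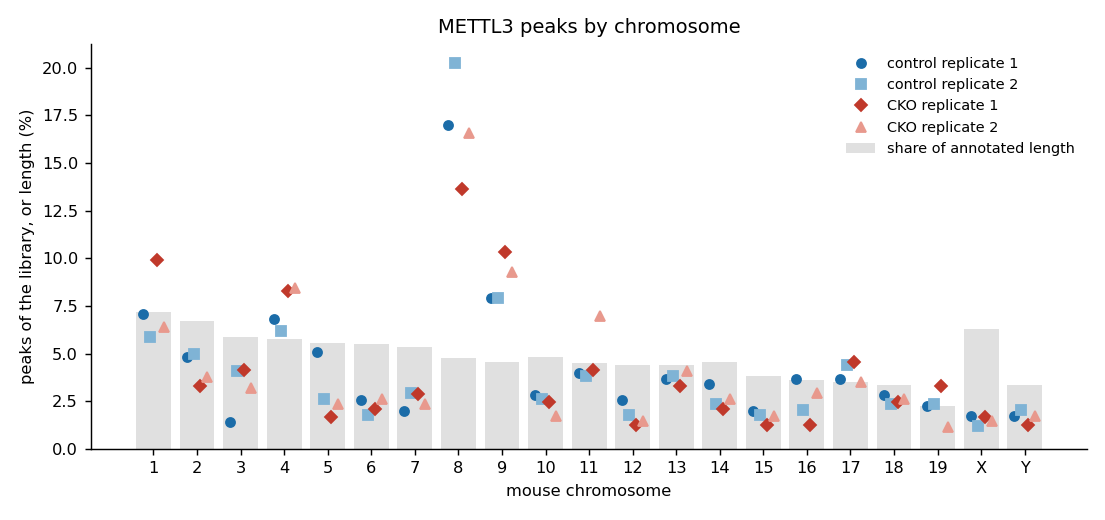
Share of each library's METTL3 peaks on each chromosome (points, percent of the list) with the share of annotated length (grey bars, percent). Chromosome 8 stands at 13.6% to 20.2% against 4.75% of the length, and chromosome X below its length share in all 4 libraries.

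Chromosome 9 was the other chromosome over 1.5 times its length share in every library, with 7.93% and 7.92% of peaks in control and 10.3% and 9.30% in CKO, against 4.57% of the length. The place chr9:3000313-3038177 held 15 and 16 of its 28 and 27 control peaks and 16 and 19 of its 25 and 32 CKO peaks. The rest of the chromosome took 3.68% and 3.23% in control and 3.72% and 3.78% in CKO, below the share of the length. Of its 48 regions 20 were called in all 4 libraries. Chromosomes 6, 7, 10, 12, 15, X and Y were under their length share by more than 1.5 times in every library. Chromosome X had 1.70% and 1.17% in control and 1.65% and 1.45% in CKO, against 6.27% of the length. Chromosome Y had 1.70% and 2.05% in control and 1.24% and 1.74% in CKO, against 3.34%. Unplaced contigs, stretches of the assembly with no chromosome, took 10.2% and 11.7% of peaks in control and 13.2% and 11.6% in CKO (difference 1.46 points, two-sided exact permutation p = 0.667). The mitochondrial genome took 0.850% and 1.17% in control and 1.65% and 1.45% in CKO, from 3 to 5 peaks per library (difference 0.54 points, two-sided exact permutation p = 0.333).

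Part of the METTL3 calls lay in places that held several regions, while most places held a single region. Regions no more than 100 kb apart were joined into 607 places, of which 36 held 3 or more regions and together 252 of the 871 regions (28.9%). A single region made up 523 of the 607 places, and 464 of those 523 were hit by 1 library. Of these 36 repeated places 24 were hit by all 4 libraries and 35 by both groups, and the exception was a stretch of the Ugt1a cluster on chromosome 1, hit by CKO replicate 2 alone. Of all 607 places 67 were hit by all 4 libraries and 117 by both groups. Picking places with 3 or more regions pooled over the libraries favours such hits, so these counts are a description only. Repeated places took 34.0% and 34.3% of the peaks in control and 47.1% and 39.0% in CKO. Both CKO libraries were higher, by 8.88 percentage points on average (two-sided exact permutation p = 0.333). The difference was 5.38 points without CKO replicate 1 and 3.31 points at equal list length (42.4% against 45.7%), so its size moved with CKO replicate 1 and with list length. Of the regions called in any control library 28.8% were touched by a CKO peak, and 45.3% lay in a place that CKO also hit. Of those called in any CKO library 35.6% were touched by a control peak, and 57.1% lay in a place shared with control. The place shares include the touched regions: 16.4% of control and 21.6% of CKO regions shared the place only. How much sharing joining at 100 kb gives by itself was not tested.

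The 8 places with the most regions differed in how many of their regions recurred, and 4 of them held a region called in all 4 libraries. An unplaced contig held 54 regions over 113014 bp, with 33 and 33 peaks in control and 29 and 33 in CKO, and 13 regions were called in all 4 libraries and 21 in a single library. The start of chromosome 9 (chr9:3000313-3038177) held 19 regions, 15 of them in all 4 libraries, with 15 and 16 peaks in control and 16 and 19 in CKO. Sfi1 and its surroundings (chr11:3100211-3199976) held 11 regions, 2 of them in all 4 libraries and 6 private to a library. The mitochondrial genome held 8, of which the site at 15478 to 15763 was in all 4 and 3 were private.

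The other places were hit by all 4 libraries with no region common to all. The stretch around Zfp978 (chr4:147253819-147586963) held 20 regions, of which 17 were private to a library and 0 common to all 4. Its peaks numbered 3 and 5 in control and 6 and 9 in CKO. A neighbouring stretch in Zfp992 and the pseudogene Vmn2r-ps16 (chr4:146454955-146494800) held 7 regions, all private, with 2 and 1 peaks in control and 3 and 1 in CKO. On chromosome 1 a stretch with Gm38510, C130026I21Rik and Gm7592 (chr1:85234939-85345468) held 15 regions, 11 of them private, with 4 and 3 peaks in control and 7 and 5 in CKO. Both control libraries called 0 of these regions and both CKO libraries 2. A stretch of chromosome Y (chrY:90737551-90812855) held 10 regions, 6 of them private, with 5 and 5 peaks in control and 2 and 5 in CKO. There both control libraries called 2 regions and both CKO libraries 1. The places were picked by their number of regions, so the differences between groups in them are a description with no test.

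**Figure D5:**
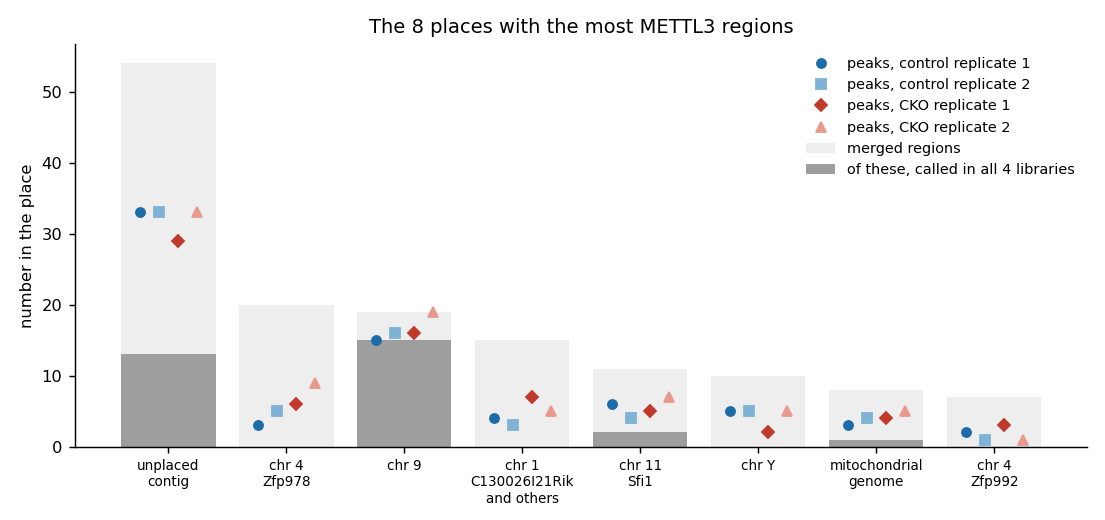
The 8 places with the most METTL3 regions (x axis), with the number of merged regions (light bars), those called in all 4 libraries (dark bars) and the peaks of each library (points). On the contig and at the start of chromosome 9 many regions recur in all 4 libraries (13 and 15), while at Zfp978 and Zfp992 none does.

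Regions called in both libraries of 1 group and in none of the other were few. Both control libraries and no CKO library called 7 regions (0.804%), and both CKO libraries and no control library called 12 (1.38%). For the pairs of a control and a CKO library, the regions called by those 2 alone numbered 4, 8, 9 and 10. The 7 and 12 were thus close to what mixed pairs gave, and they do not show sites of a genotype. Of the 19 regions of 1 group only, 13 lay in a place where the other group also had a peak. Leaving out a library changed these counts: control-only regions numbered 18 without CKO replicate 1 and 21 without CKO replicate 2, and 204 and 214 with a single control library. CKO-only regions numbered 23 without control replicate 1 and 21 without control replicate 2, and 203 and 110 with a single CKO library. In the mitochondrial genome the control-only region (398 to 682, in mt-Rnr1) and the CKO-only region (15 to 281, in TrnF and mt-Rnr1) were 116 bp apart. On the unplaced contig the control-only region 6931 to 7240 had a CKO peak 1099 bp away. On chromosome 8 the control-only regions chr8:123431360-123431771 and chr8:123427997-123428331, 9344 and 5981 bp from Tubb3, a neuronal tubulin, had CKO peaks 336 and 3776 bp away. The control-only region chr4:147423786-147424120, 18993 bp from Zfp982, had a CKO peak 1650 bp away.

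The 8 CKO-only regions in places shared with control lay 116 to 12580 bp from a control peak. At the start of chromosome 9 the region chr9:3020376-3020642 was 1769 bp from a control peak. Beside Sfi1 the region chr11:3101731-3102226 was 119 bp from a control peak. In Sp140, a nuclear body protein, chr1:85625001-85625284 was 812 bp from a control peak. In Zfp600 the region chr4:146173886-146174188 was 5836 bp away from a control peak, in Gm38510 chr1:85300292-85300597 was 7386 bp away, in Gm7592 chr1:85332693-85332959 was 12232 bp away and in Zfp978 chr4:147336927-147337298 was 12580 bp away.

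In 6 regions the other group had no peak within the place. The control-only sites lay in protein-coding genes, chr1:26686798-26687249 in 4931408C20Rik at positions 148 and 217, and chr8:105406514-105406986 in Kctd19 at positions 219 and 270. CKO only were chr7:19628597-19629037 in Relb, a subunit of NF-kappaB, at positions 182 and 220, and chr4:28176820-28177086 in the long noncoding RNA gene Gm52725 at 161 and 291. The others were chr1:157084773-157085039, 14101 bp from Tex35, at 77 and 86, and chr18:82170421-82170701, 221794 bp from Galr1, at 190 and 284. Apart from the site near Tex35, these 6 stood in the middle or the later part of the lists. METTL14 lists, from cells with other genotypes, held the sites in Relb and Gm52725 in all 4 libraries and those in Kctd19 and near Tex35 in none.

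Members of the gene lists chosen for this comparison are read against the 1.36% of all protein-coding genes with a METTL3 region, a share at which lists of 12 to 21 genes hold few or none. The m6A writer genes had none in any library at 12 of 12 members, Mettl3 and Mettl14 included, and peak lists of this kind do not check the genotype. Of 14 genes for m6A erasers and readers, Fto, an m6A eraser on chromosome 8, had 2 peaks, both in CKO replicate 2. None of 20 genes for the silencing of endogenous retroviruses and none of 20 pluripotency genes had a peak. Of 21 matched 2-cell stage genes Duxf3 had 1 peak, in control replicate 1. Of 13 protein genes of the mitochondrial genome ND1, ND2 and COX1 had peaks. COX1, a subunit of cytochrome oxidase, had 1 in control replicate 2 and 1 in CKO replicate 1. Of 400 genes named Zfp, mostly zinc finger transcription factors, 9 (2.25%) had a peak in any library, beside 1.36% of all protein-coding genes, with no test of the difference. Of these, Zfp978, Zfp600, Zfp992 and Zfp984 lay close together at chr4:146156827-147812229. Others of the 9 were on chromosome 8, where 8.34% of protein-coding genes were marked, so the share rests largely on these 2 parts of the genome. The 9 genes were marked in 5 and 5 cases in control and 4 and 6 in CKO. Among them Zfp936, with 0 and 2 peaks in control and 1 and 0 in CKO, was the only one besides Zfp978 and Zfp600 with a region of 2 libraries. Zfp992 and Zfp984 had peaks in 3 libraries each, without a shared region. Olfactory and vomeronasal receptor genes had peaks at 2 of 1465 members, Olfr722 in control replicate 2 and Vmn2r6 in CKO replicate 2. Peak lists do not show which cell type was present, so the labelled cell type was not checked.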

How the data were processed

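CUT&RUN peaks were taken as the authors deposited them, as 1 list per library with positions and a score that is 1 for every peak. Per the submitters' processing notes, CASAVA, Trimmomatic 0.38, Bowtie2 2.4.1, SAMtools and HOMER were used (roles not given) on mm10. For the peak threshold, the background library and the read depth nothing is given in the sources used here, so peak numbers cannot be set against depth.

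Peaks of the 4 METTL3 lists were merged at 1 bp of overlap, and a region counted as replicated when both libraries of a group called it. Gene bodies came from the RefSeq table of GRCm38.p6, the assembly behind mm10, and starts from its promoter windows (17492 protein-coding genes). Contigs carry no genes in that table. Chromosome length was taken as the highest annotated gene end. Library measures were compared with an exact permutation test (scipy 1.17.1, Python 3.11.15), with Benjamini-Hochberg adjustment over 9 tests. Shares have 95% Wilson intervals. Merging was tested on simulated lists, and 100% of 255 regions were recovered. The simulated regions lay well apart on a single chromosome, so closely spaced regions, as on the contig, were not tested.

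Named regions were the 10 best by mean list position in all 4 libraries and all regions called in both libraries of 1 group only. Named genes were those with a region of all 4 libraries, the 10 next protein-coding and 5 next noncoding genes, and at most 6 peak-bearing genes from each list. A gene that this rule names is not reported here. Named places were the 8 with most regions, and named chromosomes those off their length share by 1.5 times in every library. The members, lists and rules were chosen with earlier results of these data known. Since the score was constant, list order was used for ranking. Alternatives covered chromosomes, list length, overlap, windows, gaps, single libraries and pairing. No genome was used, so peak sequences are not shown.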

Additional observations from a re-analysis of the deposited data

How the results depend on the processing

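Each library was left out in turn. The share of replicated control regions found again in CKO then ran from 28.6% to 85.2% and that of replicated CKO regions found again in control from 30.2% to 82.8%, low where a lone library stood for the group counted. The METTL14 share ran from 44.6% to 94.3%, control-only regions from 18 to 214 and CKO-only regions from 21 to 203. The gene-body difference ran from -0.96 to 0.98 points, the intergenic from -1.94 to 0.55 and the boundary difference from -2.05 to 0.79. With lists cut to 242 peaks the noncoding difference was -0.41, the boundary difference 0.41 and the contig difference -1.03 points, and with a window of 1 kb the boundary difference was 0.15. Without chromosome 8, added after seeing the data, the gene-body difference was -0.63. With the first 50% of each list 83.2% of CKO regions were found again and 4 were CKO only. Single-library regions were then 10.6% on chromosome 8 and 31.7% in gene bodies. Peaks widened by 500 bp gave 82.5% of CKO regions found again. With either library of a group the shares were 28.8%, 35.6% and 34.4% (METTL14), and a 50% reciprocal overlap gave 75.7% for METTL14. The differences on chromosome 8, in repeated places and in mitochondrial DNA kept their sign in every alternative run. With the replicate block the mean differences are the same by construction, as for chromosome 8 (-3.51 points, exact sign-flip p = 0.5, the smallest for 2 pairs), and peak number (-0.27, exact sign-flip p = 1). The calls of same-numbered libraries showed no shared deviation (correlation -0.0145 over 871 regions). With 2 libraries per group the crossed numbers give the mirror value, 0.0145. Calls of this kind cannot settle whether the libraries were paired, for example by culture or batch. The causes of these shifts were not tested. Read depth is unknown and limits every count.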
